A study of Mus musculus with 2 samples.

Results

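The glucocorticoid receptor target genes examined here were Tsc22d3, Fkbp5, Sgk1, Zbtb16, Dusp1, Cdkn1a and Hsd11b1, 7 of the 20652 genes that could be named on an Agilent array of mouse liver RNA. The members were chosen by name, with earlier results of these data known, and a probe was taken as theirs where its RefSeq transcript identifier belongs to one of these genes, which gave 8 probes on 26 spots of each array. Upon feeding, 6 of the 7 genes were at least 2-fold lower than in the fasted liver, and none was higher. Of all 16346 genes measured, 4.62% were at least 2-fold lower and 3.29% at least 2-fold higher. The median change of the 7 genes was -1.67 on the log2 scale (feeding minus fasting), beside a median of 0 over all measured genes. Zbtb16 had the largest change, at 10.8-fold lower, and Hsd11b1 the smallest, at -0.18 on the log2 scale, with a sign that depended on the scaling between the arrays.

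Liver RNA came from male mice, given in the methods as C57BL/6J animals about 8 to 12 weeks old on a chow diet. The fasting group had no food for 14 to 16 h overnight, and the feeding group was refed after such a fast according to one label and had free access to food according to another; how long it had fed is not given in the sources used here. Each group was 1 array hybridised with a pool of 3 livers, so no p-value or standard error between mice exists for any difference below, and a difference between the groups cannot be told apart from one between these pools. Both arrays lay on one slide and were read in one scan. The software marked 63.1% of the spots that are not controls as well above background on the fasting array and 72.3% on the feeding array, and no spot was saturated. Hepatocyte markers, among them Alb and Ttr, were measured in 7 of 7 cases with changes between -0.33 and 0.23 and a median of -0.07 (0.13 with scaling by the median).

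Glucocorticoids are steroid hormones of the adrenal cortex, mainly corticosterone in mice, and their blood level is known to go up during fasting. The receptor, encoded by Nr3c1, waits in the cytosol in a complex with the chaperone Hsp90, moves into the nucleus once it holds the hormone, and binds a palindromic DNA motif, the glucocorticoid response element, near the genes it induces. In liver it is best known for inducing enzymes of gluconeogenesis and amino acid breakdown. Most of its target genes also answer to other signals, such as cyclic AMP, insulin through FoxO factors, or p53, and neither corticosterone nor binding of the receptor was analysed here.

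The bases before the transcription start are shown for 3 members, because these stretches hold letters of response elements to glucocorticoid or cyclic AMP. Promoter entries of RefSeq (build GRCm38.p6) were matched by symbol for 6 of the 7 members, with 14 starts in all. Zbtb16 had no entry and was not searched. The 250 bases before each start were searched on both strands. The motifs were the glucocorticoid response element (GNACA and TGTNC with any 3 bases between them, N being any base), its half-site (AGAACA), the cyclic AMP response element (TGACGTCA), its half-site (TGACG) and the TATA box (TATAAA). The glucocorticoid half-site can overlap its full element and run past the end of it, as it does below. The cyclic AMP half-site lies within every copy of its full element. In the lines that follow, which run 5′ to 3′ on the strand of the gene and end at the base before the start, capitals mark every match.
Sgk1, chr10:21993640-21993889, plus strand: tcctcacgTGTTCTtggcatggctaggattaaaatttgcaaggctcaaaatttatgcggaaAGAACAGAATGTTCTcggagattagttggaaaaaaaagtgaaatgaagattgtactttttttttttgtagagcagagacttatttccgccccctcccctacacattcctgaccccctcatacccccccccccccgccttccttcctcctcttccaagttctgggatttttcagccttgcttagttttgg
Dusp1, chr17:26508473-26508722, minus strand: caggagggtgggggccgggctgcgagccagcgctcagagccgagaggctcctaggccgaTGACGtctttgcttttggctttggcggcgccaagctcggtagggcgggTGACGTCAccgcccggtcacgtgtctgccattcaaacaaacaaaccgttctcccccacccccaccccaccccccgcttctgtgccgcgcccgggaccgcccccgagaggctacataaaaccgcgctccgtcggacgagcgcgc
Tsc22d3, chrX:140600523-140600772, minus strand: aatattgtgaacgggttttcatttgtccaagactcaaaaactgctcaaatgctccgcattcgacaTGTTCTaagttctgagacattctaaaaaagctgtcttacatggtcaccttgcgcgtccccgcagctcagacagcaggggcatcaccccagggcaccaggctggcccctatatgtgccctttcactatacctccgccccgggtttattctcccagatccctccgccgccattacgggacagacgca

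Of the 14 stretches, 1 held the full glucocorticoid response element, the one before start 5 of the 6 that Sgk1 has, counted along its strand, beside 0.387% of all 32851 stretches of this length. There the match ran from 188 to 176 bases before that start (chr10:21993702-21993714), which is 964 bases before the last Sgk1 start in the table, and its letters were GAACAGAATGTTC. The half-site was found in 4 of the 14, belonging to Sgk1 and Tsc22d3, and in 16.1% of all stretches. The TATA box was found in 2 of the 14, both of Sgk1, and in 12.4% of all stretches. The full cyclic AMP response element was found in 1 of the 14, that of Dusp1, from 143 to 136 bases before the start, and in 1.55% of all stretches. Its half-site was found in 3 of the 14, of Dusp1, Sgk1 and Tsc22d3, and in 17.8% of all stretches. None of these motifs was found before the starts of Fkbp5, Cdkn1a and Hsd11b1, which says nothing of more distant sites. A match of letters is a description of the sequence, and binding there was not measured. Which of its starts gives rise to the transcript that a probe reads was not determined.

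Zbtb16, Tsc22d3 and Dusp1 encode regulators that are switched on by glucocorticoid in many tissues. Zbtb16 encodes PLZF, a zinc finger transcription factor. Its probe (transcript NM_001033324) had a processed signal, the spot's intensity after background subtraction, of 886 ± 88.6 in the fasted pool and 73.7 ± 7.48 upon feeding, where the error is the one that the extraction software gives for a single spot. The fasting value was the higher one, and the ranges given by these errors did not overlap. Quantile normalization gave a log2 change of -3.43, or 10.8-fold, and 26 of the 16346 genes (0.159%) were lower by more. The local background around this spot was 42.1 upon fasting and 22.6 upon feeding. With another background correction, normexp, which adds an offset and thereby shrinks changes of dim spots, the change of Zbtb16 was -2.33. The genes with the most similar change, out of 12260 measured on both arrays with no disagreement in direction between probes, were Ptgfr (-3.42), Wsb1 (-3.44) and Elovl3 (-3.47); with 2 arrays this likeness is no more than the distance between 2 log2 changes.

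Dusp1 encodes a dual-specificity phosphatase that switches off MAP kinases. Its signal was 8839 ± 884 upon fasting and 2026 ± 203 upon feeding (NM_013642). This is a change of -2.09, or 4.27-fold lower, with 0.832% of genes lower by more. Tsc22d3 encodes GILZ, the glucocorticoid-induced leucine zipper protein, which restrains inflammatory signaling. Its signal was 14606 ± 1461 upon fasting and 4346 ± 435 upon feeding (NM_001077364), a change of -1.72, or 3.29-fold lower, with 1.53% of genes lower by more. For both genes the fasting value was the higher one by far more than the error of a spot.

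Sgk1 encodes a serine/threonine kinase named for its induction by serum and glucocorticoid. The signal of its probe (NM_001161845) was 14309 ± 1431 upon fasting and 4406 ± 441 upon feeding. The change of -1.67, or 3.18-fold, was nearly that of Tsc22d3, from which it differed by less than the error of 0.20 that the software's values give for a log2 change of either probe. The other kinases of the family, Sgk2 and Sgk3, named after their values were seen, had changes of -0.12 (0.09 with scaling by the median) and of 0.42 on the brighter Sgk3 probe and -0.50 on the other, so no direction can be given for Sgk3.

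**Figure D1:**
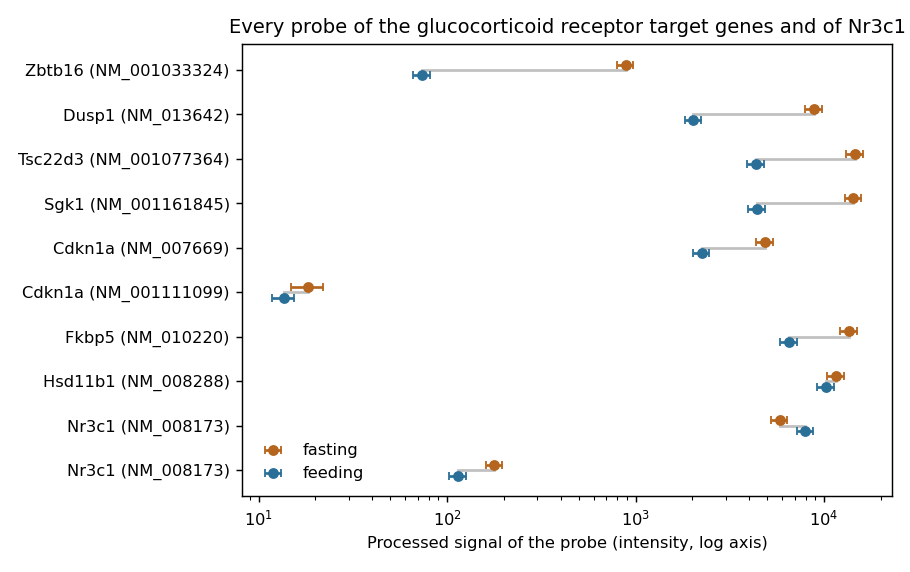
Processed signal (intensity, log axis) of each probe of the 7 target genes and of the receptor gene Nr3c1 on the fasting array (brown) and the feeding array (blue), with bars for the error given by the extraction software. The fasting value lies to the right for every probe of the 7 genes, by 10.8-fold after normalization for Zbtb16 and 1.13-fold for Hsd11b1 (whose sign turns with scaling by the median), while the probes of Nr3c1 run in opposite directions; positions of different probes on the axis are not comparable.

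Fkbp5 encodes FKBP51, an Hsp90 cochaperone that lowers the affinity of the receptor for its hormone and is itself induced by the receptor. Its signal was 13555 ± 1356 upon fasting and 6499 ± 650 upon feeding (NM_010220). The change of -1.04, or 2.05-fold lower, lay close to the threshold, with 4.34% of genes lower by more. It was -0.95 with each array scaled by its 75th percentile, -0.99 with the normexp correction and -0.83 with each array scaled by its median, so that the direction held and the 2-fold call did not. The related cochaperone Fkbp4, which encodes FKBP52 and favours hormone binding, moved the other way, from a normalized signal of 2242 to 4606, or 2.05-fold higher (0.99 on the log2 scale under normexp, just inside 2-fold).

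Cdkn1a encodes p21, an inhibitor of cyclin-dependent kinases. It had 2 probes, one of them (NM_007669) spotted 10 times on each array. The 10 spots ranged from 4697 to 4965 upon fasting, with a mean of 4861 ± 95.3 (SD, n = 10 spots), and from 2143 to 2387 upon feeding, with a mean of 2240 ± 72.6 (SD, n = 10 spots). The 2 sets of spots did not overlap, and before normalization the change of a spot position ran from -1.16 to -1.02 with an SD of 0.04; this spread is that of the measurement on the array and holds nothing of the spread between mice. After normalization the change was -1.07, or 2.10-fold lower. The other probe, for the transcript NM_001111099, was dim, at 18.4 ± 3.55 upon fasting and 13.6 ± 1.86 upon feeding, and its change of -0.28 was smaller than its error of 0.34 from the software's values. With both probes averaged the change of Cdkn1a was -0.67, and with each array scaled by its median it was -0.88, both short of 2-fold.

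Hsd11b1 encodes the enzyme 11β-hydroxysteroid dehydrogenase type 1, which turns the inactive 11-keto steroid back into active glucocorticoid inside hepatocytes. Its probe (NM_008288) was also spotted 10 times, with signals from 10936 to 12076 upon fasting and a mean of 11579 ± 367 (SD, n = 10 spots), and from 9519 to 10689 upon feeding with a mean of 10230 ± 373 (SD, n = 10 spots). The sets of spots did not overlap, and all 10 spot positions were lower upon feeding. The change after quantile normalization was -0.18, and 30.2% of all genes were lower by more. It was -0.07 with scaling by the 75th percentile and 0.06 with scaling by the median, so no direction can be given for Hsd11b1.

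**Figure D2:**
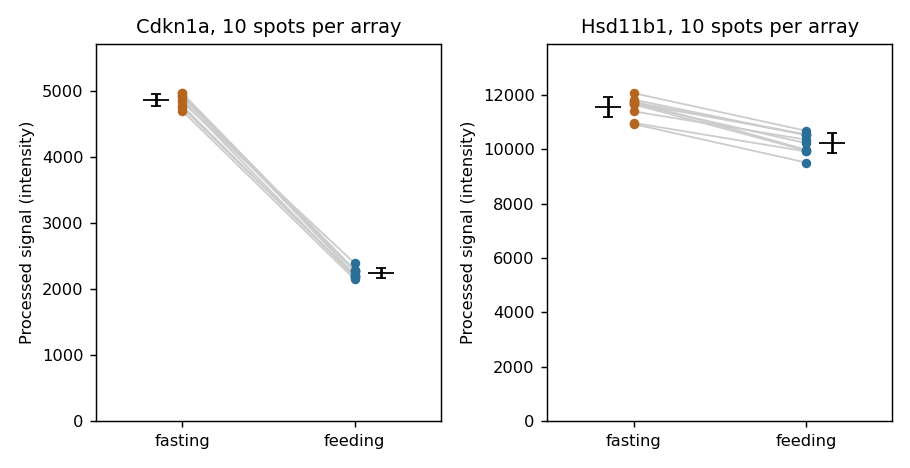
Processed signal (intensity) of the 10 replicate spots of Cdkn1a (left) and of Hsd11b1 (right) on the fasting and feeding arrays, with lines joining the same spot position and black bars for the mean and SD over spots. The Cdkn1a spots have means of 4861 and 2240 and those of Hsd11b1 of 11579 and 10230, with no overlap between the arrays in either case before normalization.

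Across the 7 genes, 4 were past 3-fold (Zbtb16, Dusp1, Tsc22d3 and Sgk1), beside 1.9% of all genes at least 3-fold lower and 0.967% at least 3-fold higher, and these 4 stayed past 2-fold under every scaling and background correction tried. With scaling by the median, Tsc22d3 was 2.86-fold and Sgk1 2.76-fold lower, short of 3-fold. In a bulk sample, fewer cells of a type and less RNA per cell cannot be told apart. With scaling by the median, 4 of the 7 were at least 2-fold lower, and 649 of all genes were lower and 717 higher, where quantile normalization gave 756 and 537. With genes split by signal into 3 equal classes, replicate spots gave a log2 change with an SD of 0.06 in the brightest class, which holds all members other than Zbtb16, and 0.08 in the middle class, which holds Zbtb16. Of the genes in the brightest class, 3.71% were at least 2-fold lower.

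**Figure D3:**
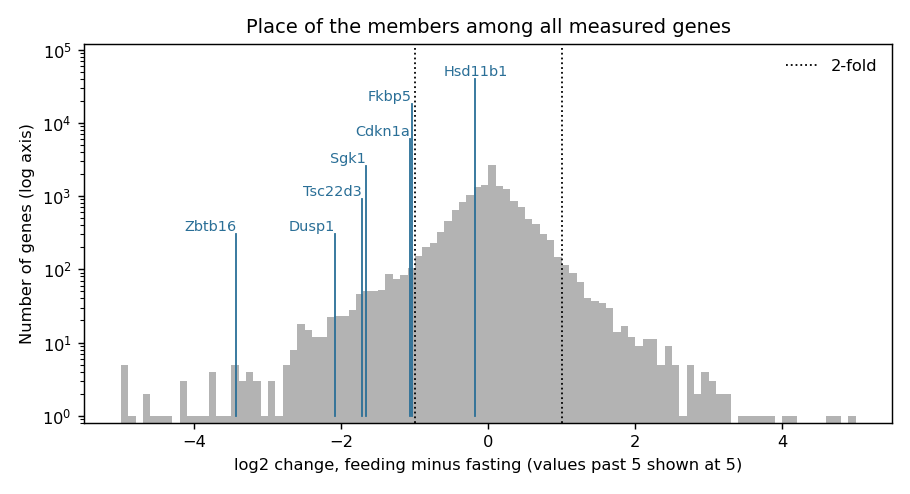
Number of genes (log axis) at each log2 change between feeding and fasting for all 16346 measured genes (grey), with blue lines at the 7 members and dotted lines at 2-fold; the heights of the blue lines only separate the names. Zbtb16 lies at -3.43 in the far left tail, Cdkn1a and Fkbp5 lie just past 2-fold, and Hsd11b1 lies within the bulk of genes.

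**Figure D4:**
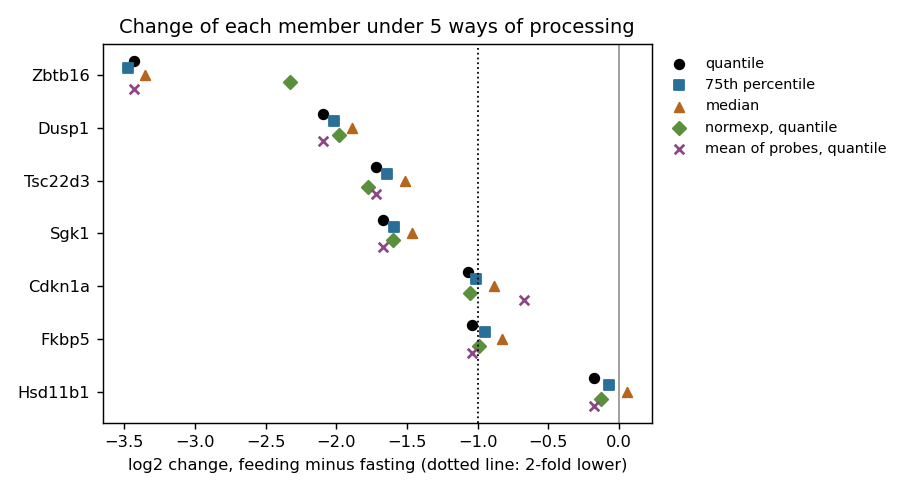
Log2 change of each member under 5 ways of processing, with a dotted line at 2-fold lower. Zbtb16, Dusp1, Tsc22d3 and Sgk1 lie left of the line in all 5, Cdkn1a and Fkbp5 lie on either side of it, and Hsd11b1 lies on either side of 0, from -0.18 to 0.06.

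The receptor itself and the proteins that supply or remove its hormone were set beside these targets. All 9 genes of this list were measured and none was past 2-fold. Nr3c1 had 2 probes for the same transcript, which disagreed. The brighter one was 5811 ± 581 upon fasting and 7935 ± 793 upon feeding, a change of 0.48, and the other was 178 ± 18.1 and 114 ± 11.5, a change of -0.43, so no direction can be given for the receptor's RNA. H6pd, which supplies the cofactor that Hsd11b1 uses, had a change of -0.23 (-0.01 with scaling by the median). Akr1d1 and Srd5a1, which encode reductases that inactivate glucocorticoids, had changes of -0.74 and -0.44 (-0.53 and -0.24 with scaling by the median). Serpina6, which encodes the corticosteroid-binding globulin of plasma, had a change of 0.26, and Abcb1a, which encodes an efflux pump that carries steroids, one of 0.24. Nr3c2, the gene of the mineralocorticoid receptor, was dim and had a change of -0.88 (-0.20 under normexp). Hsd11b2, which encodes the inactivating dehydrogenase of kidney, was not well above background upon fasting. Its normalized signals were 7.39 upon fasting and 6.66 upon feeding, and no fold is given for it.

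Of 10 listed chaperones and cochaperones of the receptor, 2 were at least 2-fold higher upon feeding, beside 3.29% of all measured genes. They were Dnaja1, which encodes an Hsp40 cochaperone (2.06-fold), and Fkbp4, and under normexp 1 was. Fkbp5 was lower, and the other 7 were within 2-fold. The median was 0.37, and 9 of the 10 had a value above 0, beside 47.7% of all measured genes. Hsp90aa1, the inducible Hsp90, had a change of 0.57 and Hsp90ab1, the constitutive one, of 0.21. These 2 were named after their values were seen. Of 12 coregulators, 1 was past 2-fold, beside 4.62% of all measured genes at least 2-fold lower and 3.29% at least 2-fold higher. It was Ppargc1a, which encodes the coactivator PGC-1α of fasting metabolism, at 9.58-fold lower (-3.26, with its other probe at -3.48, and -2.45 under normexp). The others lay between -0.89 and 0.72 on their brightest probes. Less bright probes of Ncor1 (1.19) and Med1 (-1.07) were past 2-fold, in opposite directions.

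A list of 30 other liver genes known to be induced by glucocorticoid was used to see how far the pattern extended. Of these, 16 were at least 2-fold lower upon feeding and 1 was higher, with a median change of -1.08. Of all measured genes 4.62% were lower and 3.29% higher. With scaling by the median 14 of the list were lower, beside 3.97% of all genes. With the normexp correction 15 were lower, beside 1.91% of all genes. The largest decreases were those of Lpin1, a phosphatidate phosphatase and coactivator (-4.69, and -4.05 under normexp), and Igfbp1, an IGF-binding protein (-4.33). Ddit4, an inhibitor of mTORC1, changed by -3.73 and Angptl4, an inhibitor of lipoprotein lipase, by -3.29. Klf9, a Krüppel-like factor, changed by -3.27 (-2.13 under normexp), from a normalized signal of 776 to 80.7. Among the enzymes of glucose production and fuel use, Pck1 changed by -2.95, G6pc by -1.77 and Pdk4 by -2.36. Cebpd, a C/EBP transcription factor, changed by -2.14, and Hif3a by -2.49 on its brightest probe, a dim one that was at -0.98 under normexp and so within 2-fold, while another probe was at 0.06. The period genes, which are clock repressors that also answer to glucocorticoid, ran in opposite directions, with Per1 at -1.95 and Per2, the 1 gene that was higher, at 2.36. Tat, the tyrosine aminotransferase gene that is the classical liver target, was named after its value was seen: its normalized signal was 104878 upon fasting and 53470 upon feeding, a change of -0.97, just inside 2-fold (-1.02 under normexp). Many genes of this list are also induced by glucagon or FoxO factors, and the list was written with earlier results for some of them known, so its count is a description only.

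**Figure D5:**
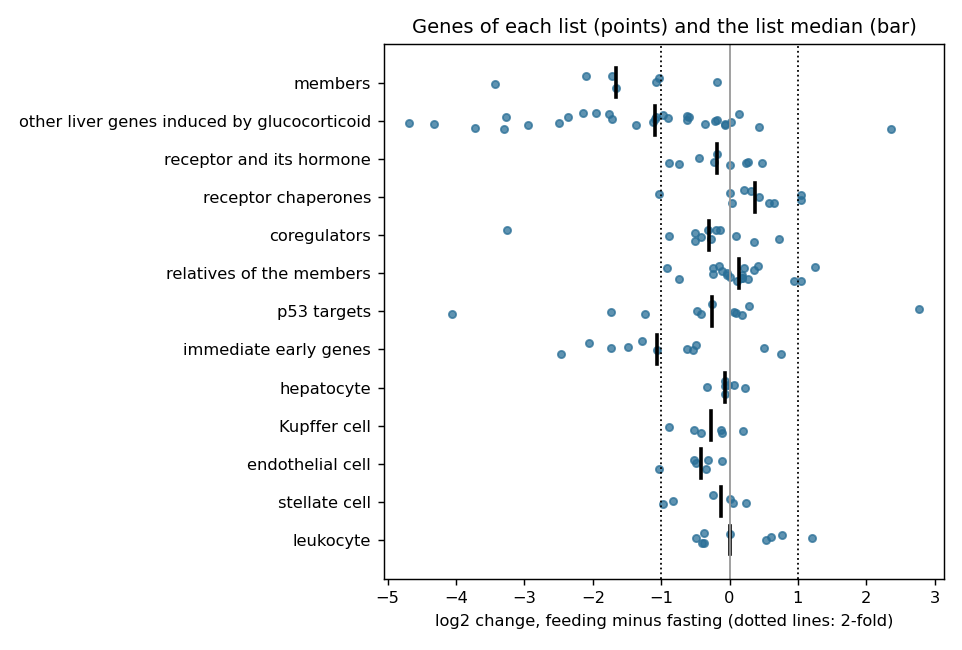
Log2 change between feeding and fasting of each gene (points) in 13 of the 16 lists, with black bars at the list medians and dotted lines at 2-fold. The members and the other liver genes induced by glucocorticoid have medians of -1.67 and -1.08, the receptor chaperones one of 0.37 and the hepatocyte markers one of -0.07.

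Relatives of the members by sequence or name served as a contrast within the same families. Of 21 such genes 20 were measured. None was 2-fold lower and 2 were higher, Dusp6, an ERK phosphatase (2.37-fold), and Fkbp4. Over the list 11 changes lay above 0 and 8 below, beside 47.7% of all measured genes above 0. The dim Hsd11b2 was set to 0 by the bound described below. Dusp2, also named after its value was seen, changed by -0.91. With scaling by the 75th percentile it was at -0.999, at the edge of 2-fold, and under normexp at -0.58. The nearest relatives, named after their values were seen, had changes of 0.94 for Tsc22d1 (1.02 with scaling by the 75th percentile, past 2-fold), 0.19 for Tsc22d2 and -0.04 for Tsc22d4 on its brightest probe, whose other probes reached -0.25 and 1.24, and of -0.74 for Cdkn1b and 0.11 for Cdkn1c, which encode the other inhibitors of the p21 family. Dusp1 and Cdkn1a belong to 2 further programs. Of 12 immediate early genes 11 were measured and 6 were at least 2-fold lower (4 under normexp), namely Nr4a1 (-2.46), Fos (-2.05, and -1.44 under normexp), Btg2 (-1.74), Zfp36 (-1.48), Ier2 (-1.29 on a dim probe, and -0.18 under normexp) and Jun (-1.05, and -0.70 under normexp), with a list median of -1.05. Of 12 p53 targets 11 were measured. Trp53inp1 (-4.06 on its brightest probe, -0.59 on the other), Btg2 and Bbc3 (-1.24) were lower, Gadd45a was higher (2.77), and the median was -0.26. Over all measured genes 4.62% were at least 2-fold lower (1.91% under normexp) and 3.29% higher.

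Several members are also expressed by cells other than hepatocytes, so markers of those cells are given beside them. Of the 6 Kupffer cell markers none was past 2-fold, with changes from -0.89 to 0.20 and a median of -0.27 (-0.06 with scaling by the median). Their summed signal, quantile normalized like the sums below, was 77236.5 upon fasting and 58744 upon feeding. Of the 6 endothelial markers Pecam1 was lower (2.05-fold, and -0.98 with scaling by the median). The median of these markers was -0.42 (-0.20 with scaling by the median), with sums of 37611 and 28744. The 6 stellate cell markers ran from -0.97 to 0.24, with a median of -0.12 (-0.02 with scaling by the median) and sums of 38799 and 30198. Leukocyte markers (9 of 10 measured) had a median of 0 and sums of 6948 and 6447. This median is the value of Cd79a, a dim gene (11.8 upon fasting and 8.45 upon feeding) whose change was set to 0 by the bound described below. Ptprc, the common leukocyte marker, had a change of -0.49, Ms4a1 was higher on a dim probe (1.21, and 0.21 under normexp), and no probe was named as Ly6g. Of 5 bile duct markers Sox9 was higher (4.31-fold) and Krt19 was dim, at 44.5 and 35.9. Red blood cell markers (4 of 5 measured) ran from -0.23 to 0.07 and those of pancreas (5 of 6) from -0.46 to 0.24, with Cpa1 at 12.8 and 8.72. None of these lists had a median as low as the -1.67 of the target genes. A list median does not show which cells express a target gene. The part of other cell types in the changes of the target genes was not tested.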

How the data were processed

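The authors labelled total RNA of 2 liver pools with Cy3, hybridised it to the Agilent Whole Mouse Genome array and quantified it with the Agilent software Feature Extraction, version 11.0.1.1; the deposited values are intensities per spot, background-subtracted but not normalized between arrays. The deposited value table of the series equals the local background mean of all 44397 spots (relative tolerance 1e-06) and was not used. Spots flagged as outliers (123 upon fasting, 98 upon feeding) and controls were left out, log2 processed signals were averaged per probe and quantile normalized over 39402 probes, and 27218 probes were named through RefSeq transcripts (table of GRCm38.p6; the design names another build, so probes get no coordinates). A gene was represented by its brightest probe and counted as measured where that probe was well above background on at least 1 array in at least 0.5 of its spots; where it was so on 1 array alone, the change was taken as a bound against the lowest signal well above background. The 2-fold threshold follows the methods. No test was possible with 1 array per group, and the number of arrays limits the precision.

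Other settings scaled each array by its 75th percentile or its median, used normexp with an offset of 50 on the median signal (limma 3.58.1, R 4.3.3), or took the mean over all probes of a gene. Other filters on dim probes, no bound, and 1.5-fold and 3-fold thresholds were also tried. Genes named were all members, the receptor and hormone list, and up to 12 genes past 2-fold of each other list, with exceptions stated. The members and the 16 lists were chosen with earlier results of these data known. The procedure was tested on simulated data. Python 3.11.15 was used for all other steps.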

Additional observations from a re-analysis of the deposited data

How the results depend on the processing

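The count of target genes at least 2-fold lower upon feeding was 6 with quantile normalization, 5 with scaling by the 75th percentile, with normexp and with the mean of a gene's probes, 4 with scaling by the median and at a 3-fold threshold, and 6 in the other settings tried; none was 2-fold higher in any of them. The median change of -1.67 became -1.59 with the 75th percentile, -1.46 with the median and -1.60 with normexp. Hsd11b1, which was never past 2-fold, was the one member whose sign changed. Among all genes, 215 were higher and 312 lower with normexp, and 876 and 760 without the bound. The counts were 838 and 1185 without a filter on dim probes, 1714 and 1737 at 1.5-fold, and 158 and 311 at 3-fold. The share of genes 2-fold lower was 4.92% with the 75th percentile, 3.97% with the median and 1.91% with normexp. It was 4.56% with the mean of probes, 4.65% without the bound and 5.74% without the filter. With probes well above background on both arrays it was 4.44%. No paired analysis was possible because each group has 1 array. With 1 array per group no replicate could be left out. The signal over background limits Zbtb16 upon feeding and the second Cdkn1a probe.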

Other observations

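Among the 26 other liver genes induced by glucocorticoid that have a RefSeq promoter entry, 2 held the full glucocorticoid response element in the 250 bases before a start, Mt1 and Fam107a, as did 0.440% of all 27025 genes with an entry. Both were named after their values were seen. Mt1, which encodes a metallothionein, had a log2 change of -0.07 upon feeding (0.10 with scaling by the median), while its paralog Mt2 changed by -1.09 (-0.93 with scaling by the median). The paralogs are close in sequence, and whether either probe also reads the other RNA was not tested, so either value is uncertain. Fam107a had a change of -0.59 on its brightest probe and of -2.13 on its other probe. Sgk1, the target gene found with the element, changed by -1.67, and Zbtb16 could not be searched.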
